A study of Homo sapiens with 59 samples.

Results

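The libraries described here were made from A549, a cell line established from a human lung carcinoma, after 24 h with a 70% ethanol extract of Coptidis Rhizoma at its medium dose, 22 µg/mL, or with vehicle. They were chosen by their labels: 2 libraries of the extract, replicates 2 and 3, and 3 libraries of the vehicle, replicates 1, 2 and 3, make 5 of the 59 libraries of the series. All expressed genes were compared, and 18568 passed the filter on low counts. The vehicle is DMSO, at 0.1% per the sample labels and at 2% per the series text, a disagreement that could not be settled from the data. For comparison within the extract, 2 libraries each were used of its low dose, 4.4 µg/mL, and its high dose, 110 µg/mL, and 2 of another 70% ethanol extract, Zizyphi Fructus, at its medium dose of 100 µg/mL, all after 24 h. Every group is the same cell line.

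The series exposed A549 cells to 8 herbal medicines, each at 3 doses, and sequenced strand-specific mRNA libraries. Per the series text, an extract whose IC20 lay under 500 µg/mL was given at that concentration and at dilutions of it, which places the medium dose of this extract below its IC20. Nothing in the labels tells separate cultures from repeat libraries of one, so p-values measure only the spread between these libraries, which may be technical. The extract and Zizyphi Fructus libraries share a code, set 11, that the vehicle libraries do not, so set and extract cannot be told apart against vehicle, except where Zizyphi Fructus serves as the comparison.

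Coptidis Rhizoma is the dried rhizome of Coptis plants and is known for isoquinoline alkaloids such as berberine, flat aromatic cations that cells concentrate in their mitochondria. Flat aromatic compounds are also known ligands of the aryl hydrocarbon receptor (AhR), a transcription factor that moves to the nucleus, pairs with ARNT and switches on the CYP1 enzymes, together with its own repressors. Shortage of amino acids, a poorly folding endoplasmic reticulum or mitochondrial distress is known to activate kinases of eIF2α, which slows translation in general and lets the transcription factor ATF4 be made; ATF4 then induces genes that make, import and load amino acids. The mitochondrial genome is transcribed as long precursors from which transfer RNAs are cut out, leaving 2 ribosomal RNAs and the messenger RNAs of respiratory subunits between them.

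Totals were 19060416 and 20150818 expected counts in the medium-dose libraries and 25251059, 27975489 and 19320259 in the vehicle libraries, within the range of 17214755 to 39751161 over the series. Levels are given per library as CPM, counts scaled to a common library size after TMM. Summed levels of 14 epithelial and alveolar markers lay between 4529.6 and 4721 CPM at the medium dose and between 6111 and 6384 CPM in vehicle. The keratins KRT8 (log2 fold change -0.51 ± 0.26, adjusted p = 0.396) and KRT18 (log2 fold change -0.38 ± 0.20, adjusted p = 0.430) made up most of them and were not called, 1 of the 9 that were tested rose (LAMP3, under 1 CPM in every library, log2 fold change 2.698 ± 0.48, adjusted p = 2.96e-04), the alveolar type II markers SFTPA1 and SFTPA2 were at 0 in both groups, and NKX2-1 was at 0 at the medium dose. In a fit without 4 libraries of other extracts, described below, KRT8 and KRT18 were called lower and LAMP3 and ABCA3 higher. Another 21 markers were of fibroblasts, endothelium, leukocytes and basal, club, ciliated and erythroid cells. Their summed levels lay between 51.5 and 52.1 CPM at the medium dose and between 48.4 and 49.9 CPM in vehicle, most of it COL1A1. Of the 21, 8 were tested, edgeR called 0, 1 was lower at an unadjusted p under 0.05 and DESeq2 called 0. Over all 18568 tested genes, 2524 passed that unadjusted p in either direction. The leukocyte markers PTPRC and CD3E were at 0 in both groups. The part of these differences in the results was not tested. In bulk RNA, fewer cells of a type and less RNA per cell cannot be told apart.

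At 24 h mitochondrial ribosomal RNAs, AhR targets and genes of amino acid synthesis and stress signalling were higher at the medium dose than in vehicle, and sterol, heat shock and some cell cycle genes were lower, by the counts given with each group. By edgeR's quasi-likelihood test, 607 genes passed an adjusted p of 0.05 (Benjamini-Hochberg): 327 rose, which is 1.76% of the tested genes, and 280 fell, 1.51%. The 327 genes that rose had a median log2 fold change of 0.67, and 88 of them rose by at least 2-fold. The 280 that fell had a median of -0.46, and 22 of them fell by at least 2-fold. The median over all tested genes was -0.01, and 555 of the called genes code for proteins. The 12 largest rises and falls named below had to show no overlap between the groups. For them the lack of overlap is therefore no added support. The spread behind these tests is shared over all 59 libraries. Without 4 libraries of other extracts, left out after seeing the data, which had the highest summed levels of antisense genes (3149 to 4601 CPM, against 2755 to 2761 CPM at the medium dose and 2762 to 2806 CPM in vehicle), 2272 genes were called, 1132 higher (6.17%) and 1140 lower (6.22%), all 607 among them in the same direction. The 2 high-dose libraries of the extract came next in that level, at 3133 and 3137 CPM, and stayed in the fit. With no filter on low counts 416 genes were called, and only 267 of the 607 were among them in the same direction. Without medium-dose replicate 2 the count was 236, and without replicate 3 it was 228; without vehicle replicate 1, 2 or 3 it was 402, 413 or 385.

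**Figure D1:**
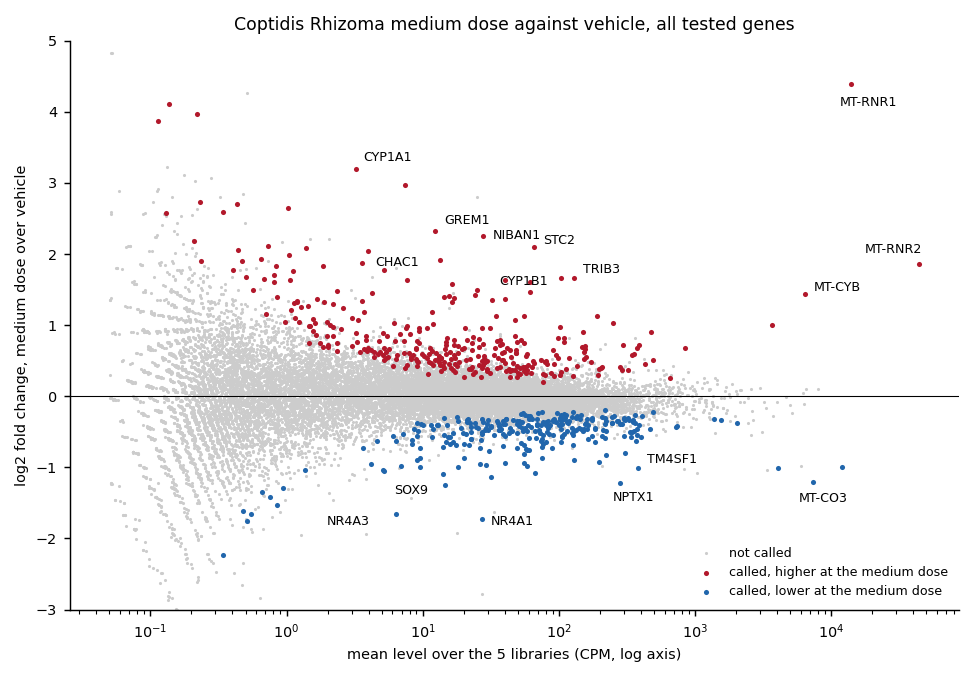
Log2 fold change of the medium dose over vehicle (vertical axis) against the mean level over the 5 libraries in CPM (horizontal log axis), 1 point per tested gene; red and blue points were called higher and lower at the medium dose. Among the labelled genes MT-RNR1 stands highest at 4.38 and NR4A1 lowest at -1.73; 231 genes, with a mean of 0.05 CPM or less or a fold change outside the axis, are not drawn.

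Both mitochondrial ribosomal RNAs rose in these mRNA libraries. How much of each RNA such libraries capture was not tested, so these values describe the libraries, not amounts in the cell. MT-RNR1, the 12S RNA of the small mitochondrial ribosomal subunit (chrM:648-1601, GRCh38), had 33123 and 32094 CPM at the medium dose, against 1617, 1447 and 1619 CPM in vehicle. It was 20.9-fold higher, with both medium-dose libraries above all vehicle libraries (log2 fold change 4.38 ± 0.23, adjusted p = 3.65e-17). MT-RNR2, the 16S RNA of the large subunit (chrM:1671-3229), had 83302 and 72948 CPM at the medium dose, against 22429, 20386 and 21642 CPM in vehicle, again with no overlap between the groups (log2 fold change 1.86 ± 0.21, adjusted p = 5.21e-08). The 2 genes lie side by side on one precursor and did not change equally: the ratio of 12S to 16S counts was 0.398 and 0.440 in the medium-dose libraries, against 0.0721, 0.0710 and 0.0748 in the vehicle libraries. Per length, 12S stood at 34181 CPM per kb and 16S at 50112 CPM per kb at the medium dose, against 1636 and 13782 CPM per kb in vehicle. Together they took 11.2 and 10.3 percent of all counts in the medium-dose libraries and 2.43, 2.24 and 2.35 percent in the vehicle libraries. With the mitochondrial genes left out of the totals, 585 genes were called.

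The messenger RNAs of the same genome split by position. Of the 12 on the heavy strand, 3 fell and 2 rose. The 3 that fell encode the core subunits of cytochrome c oxidase. MT-CO1 (chrM:5904-7445) had 8204 and 6976 CPM at the medium dose, against 15737, 14496 and 14921 CPM in vehicle, and every medium-dose value was lower (log2 fold change -0.99 ± 0.26, adjusted p = 0.0223). MT-CO2 (chrM:7586-8269) had 2818 and 2253 CPM at the medium dose, against 5043, 4888 and 5336 CPM in vehicle (log2 fold change -1.005 ± 0.28, adjusted p = 0.0366). MT-CO3 (chrM:9207-9990) had 4668 and 3546 CPM at the medium dose, against 9868, 9029.8 and 9591 CPM in vehicle (log2 fold change -1.21 ± 0.29, adjusted p = 0.0115), with no overlap in either gene. The ATP synthase subunits and complex I subunits that lie next to them had log2 fold changes from -1.08 (MT-ND3) to -0.98 (MT-ND4), and none of MT-ATP8, MT-ATP6, MT-ND3, MT-ND4L and MT-ND4 passed the test. MT-ND1 and MT-ND2, at the start of the messenger part, had -0.27 and -0.17, and their medium-dose and vehicle values overlapped. Without the 4 libraries of high antisense level, 7 of the 12 fell and 2 rose.

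The 2 that rose close the heavy-strand transcript. MT-ND5, a proton-pumping subunit of complex I (chrM:12337-14148), had 5966 and 4633 CPM at the medium dose, against 2887, 2552 and 2461 CPM in vehicle (log2 fold change 1.01 ± 0.26, adjusted p = 0.0165). MT-CYB, cytochrome b of complex III (chrM:14747-15887), had 11417 and 9163 CPM at the medium dose, against 3755, 3328 and 4322 CPM in vehicle (log2 fold change 1.44 ± 0.32, adjusted p = 0.00541). In both genes the medium-dose libraries lay above all vehicle libraries. MT-ND6, the only messenger of the light strand, had 569 and 416 CPM at the medium dose, against 339.6, 258 and 241 CPM in vehicle, with no overlap, and did not pass the test (log2 fold change 0.81 ± 0.40, adjusted p = 0.352). The messenger calls depended on single libraries. Without medium-dose replicate 2 none of these 5 was called, with adjusted p from 0.0611 (MT-CO3) to 0.297 (MT-ND5); without replicate 3 only MT-ND5 and MT-CYB were, and MT-CO1, MT-CO2 and MT-CO3 had 0.309, 0.414 and 0.274. Without a vehicle replicate, adjusted p lay between 0.0475 and 0.0714 for MT-CO1, between 0.0749 and 0.103 for MT-CO2 and between 0.0313 and 0.0722 for MT-ND5. Nuclear copies share sequence with this genome: MTCO1P12, a copy of part of MT-CO1, had 38.1 and 32.9 CPM at the medium dose, against 67.5, 64.3 and 72.9 CPM in vehicle (log2 fold change -0.94, adjusted p = 0.00893), so reads of the mitochondrial genes and their copies may have been divided between them.

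**Figure D2:**
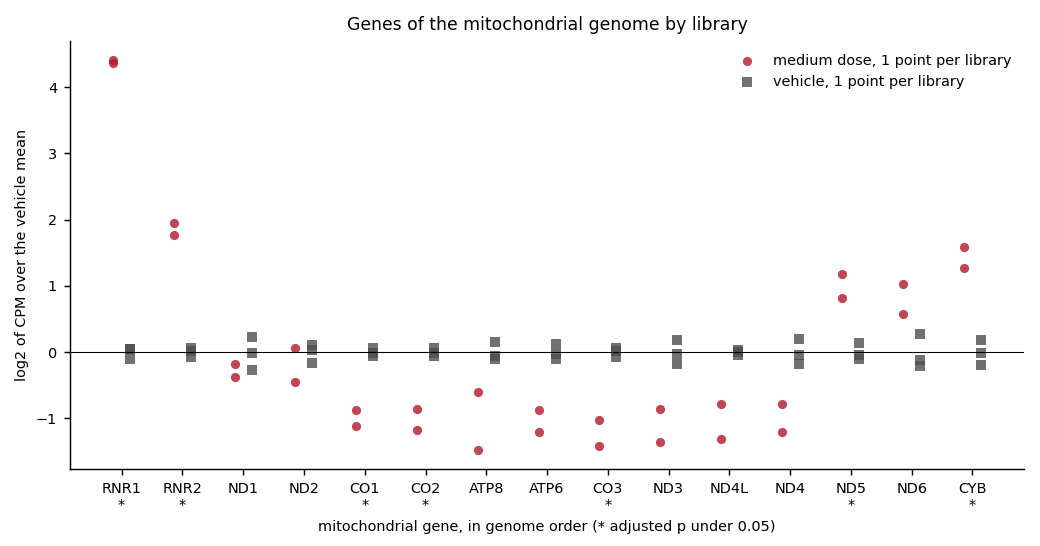
Log2 ratio of each library's CPM to the vehicle mean (vertical axis) for the 15 mitochondrial genes that passed the filter, in genome order; circles are the 2 medium-dose libraries and squares the 3 vehicle libraries. Both ribosomal RNAs, MT-ND5, MT-ND6 and MT-CYB lie above 0 and the genes from MT-CO1 to MT-ND4 below it in the medium-dose libraries.

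The 22 mitochondrial transfer RNAs did not pass the filter, with 6 and 3 counts over all of them in the medium-dose libraries and 5, 1 and 1 in the vehicle libraries. With so few counts in mRNA libraries, their levels cannot be compared. Nuclear genes that serve the mitochondrial genome were tested next. Of 30 genes of mitochondrial transcription, RNA processing and DNA maintenance, edgeR called 0, 0 and 3 were higher and lower at an unadjusted p under 0.05, DESeq2 called 0 higher and 0 lower, and the median log2 fold change was -0.08. TFAM, which packages and transcribes the mitochondrial DNA, had 111 and 96.6 CPM at the medium dose, against 115, 117 and 109 CPM in vehicle, with overlapping groups (log2 fold change -0.13 ± 0.11, adjusted p = 0.730). POLRMT, the mitochondrial RNA polymerase, had 48.1 and 47.8 CPM at the medium dose, against 60.0, 59.3 and 63.2 CPM in vehicle (log2 fold change -0.34 ± 0.19, adjusted p = 0.439). Both medium-dose values lay below every vehicle value. Without the 4 libraries of high antisense level, POLRMT, FASTKD5, ELAC2 and TRMT10C were called lower and MTERF3 higher. Of 33 nuclear-encoded respiratory chain genes edgeR called 0, with 0 higher and 3 lower at an unadjusted p under 0.05, 0 and 0 by DESeq2, and a median of -0.08. Over all 18568 tested genes the unadjusted count was 2524, higher and lower together. Without the same 4 libraries SDHA and SDHC were called lower. Among 11 genes of mitochondrial protein quality control, the Hsp70 of the matrix HSPA9 rose (log2 fold change 0.26 ± 0.07, adjusted p = 0.0342) and its chaperonin HSPD1 fell (log2 fold change -0.33 ± 0.09, adjusted p = 0.0225). Both lost the call with no filter on low counts (adjusted p = 0.730 and 0.501). Without medium-dose replicate 2, HSPA9 and HSPD1 had an adjusted p of 0.285 and 0.207; without replicate 3 they had 0.154 and 0.236, and without a vehicle replicate between 0.0461 and 0.0723 and between 0.0603 and 0.102.

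Of 6 AhR targets, 5 were tested and 4 rose, with a median log2 fold change of 1.61. Of 5 promoters of this list, 3 hold the core letters GCGTG, to which AhR and ARNT are known to bind. Both strands were searched within 250 bases before to 50 after the start. The letters are in 36.5% of all RefSeq promoters in the table used. The 3 belong to called targets, and CYP1B1, also called, is not among them. The stretches around those letters are shown for the called targets that hold them; they are from RefSeq on GRCh38.p14, read along the gene, with the core or its reverse complement in capitals.
CYP1A1, chr15:74725541-74725625, minus strand: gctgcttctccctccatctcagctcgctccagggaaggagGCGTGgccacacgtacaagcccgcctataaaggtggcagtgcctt
AHRR, chr5:321644-321728, plus strand: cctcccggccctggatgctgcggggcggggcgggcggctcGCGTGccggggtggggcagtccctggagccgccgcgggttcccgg
TIPARP, chr3:156674342-156674426, plus strand: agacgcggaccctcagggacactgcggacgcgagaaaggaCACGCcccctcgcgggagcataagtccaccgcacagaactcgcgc

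CYP1A1, a monooxygenase of aromatic hydrocarbons and the classic AhR target, had 6.85 and 7.12 CPM at the medium dose, against 0.900, 0.732 and 0.615 CPM in vehicle. It was a low-level transcript in both groups, with no overlap between them (log2 fold change 3.20 ± 0.28, adjusted p = 2.45e-10). CYP1B1, its relative with a far higher level in these cells, had 169 and 182 CPM at the medium dose, against 58.4, 54.7 and 52.8 CPM in vehicle, again with no overlap (log2 fold change 1.67 ± 0.11, adjusted p = 3.40e-14). AHRR and TIPARP are both known to repress the receptor. AHRR had 5.81 and 7.93 CPM at the medium dose, against 2.78, 2.54 and 2.20 CPM in vehicle (log2 fold change 1.45 ± 0.17, adjusted p = 2.82e-07). TIPARP had 102 and 102 CPM at the medium dose, against 35.3, 32.3 and 32.7 CPM in vehicle (log2 fold change 1.61 ± 0.25, adjusted p = 4.53e-05), and in both genes every medium-dose value lay above all vehicle values. CYP2S1 had a log2 fold change of 0.13 and was not called, and CYP1A2 did not pass the filter. AHR, the receptor itself, had 38.9 and 36.5 CPM at the medium dose, against 48.6, 49.2 and 49.6 CPM in vehicle (log2 fold change -0.38 ± 0.32, adjusted p = 0.719), lower in both medium-dose libraries, and edgeR called 0 of the 5 genes, AHR, ARNT, ARNT2 and PTGES3 among them, with 1 higher and 1 lower at an unadjusted p under 0.05 and 1 higher and 0 lower by DESeq2. The unadjusted count over all 18568 tested genes was 2524, higher and lower together. Without the 4 libraries of high antisense level, AHR and PTGES3 were called lower and ARNT2 higher. AHR then had an adjusted p of 0.0027, and it also passed in the fit of only the 2 groups and in that of set 11 with vehicle (3.02e-05).

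Of 14 transcription factors and feedback genes of the amino acid stress response, 9 rose and 0 fell, with a median log2 fold change of 0.93. NIBAN1, a stress-induced regulator of translation, had 54.8 and 51.5 CPM at the medium dose, against 10.8, 10.5 and 12.0 CPM in vehicle, with no overlap (log2 fold change 2.26 ± 0.21, adjusted p = 7.30e-10). CHAC1, which degrades glutathione, had 24.7 and 23.1 CPM at the medium dose, against 6.26, 5.96 and 6.81 CPM in vehicle (log2 fold change 1.92 ± 0.31, adjusted p = 9.16e-05). TRIB3, a pseudokinase that restrains ATF4 and AKT, had 219.9 and 218 CPM at the medium dose, against 66.3, 69.2 and 72.8 CPM in vehicle (log2 fold change 1.66 ± 0.18, adjusted p = 2.01e-08). SESN2, which signals leucine shortage to mTORC1, had 37.8 and 39.7 CPM at the medium dose, against 14.6, 13.1 and 15.9 CPM in vehicle, and DDIT4, an inhibitor of mTORC1, had 363 and 357 CPM at the medium dose, against 175, 173 and 183 CPM in vehicle. Neither gene overlapped between the groups (SESN2 log2 fold change 1.42 ± 0.17, adjusted p = 3.95e-07; DDIT4 log2 fold change 1.02 ± 0.12, adjusted p = 1.38e-07). DDIT3, which encodes the CHOP factor, had 23.4 and 27.8 CPM at the medium dose, against 9.004, 11.7 and 9.94 CPM in vehicle (log2 fold change 1.32 ± 0.24, adjusted p = 4.63e-04). CEBPG, a partner of ATF4, rose by 0.70 ± 0.13 on the log2 scale, VLDLR by 0.84 ± 0.16 and PPP1R15A, which dephosphorylates eIF2α, by 0.77 ± 0.20.

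ATF4 transcripts themselves had 342 and 331 CPM at the medium dose, against 259, 260.2 and 261 CPM in vehicle, above vehicle in both libraries, and did not pass the test (log2 fold change 0.37 ± 0.18, adjusted p = 0.368). ATF3, ATF5, CEBPB and NUPR1 were not called either, at 0.58, 0.20, 0.04 and 1.24. NUPR1 was called higher by DESeq2, with no filter on low counts and without the 4 libraries of high antisense level. ATF4, ATF3, ATF5 and NUPR1 were called higher in the fit of only the 2 groups and in that of set 11 with vehicle. Of 7 genes upstream of ATF4, the 4 eIF2α kinases among them, only DELE1, which relays mitochondrial stress to the kinase HRI, was called (log2 fold change 0.27 ± 0.08, adjusted p = 0.0396). That call was lost without medium-dose replicate 2 (adjusted p = 0.277), without replicate 3 (0.197), without vehicle replicate 2 or 3 (0.137 and 0.0632), and with no filter on low counts (0.716). Of 4 secreted factors known to be induced by this response, 3 were tested and 2 rose. ADM2, a peptide hormone of the calcitonin family, had 7.07 and 7.48 CPM at the medium dose, against 1.49, 1.67 and 2.20 CPM in vehicle, with no overlap (log2 fold change 2.04 ± 0.24, adjusted p = 1.33e-07). VEGFA, the vascular growth factor, had 59.1 and 63.2 CPM at the medium dose, against 42.2, 40.5 and 37.6 CPM in vehicle (log2 fold change 0.61 ± 0.12, adjusted p = 9.95e-04). GDF15 had 0.67 and was not called.

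Of 17 enzymes that make serine, folate-bound carbon units, proline and asparagine, 12 rose and 0 fell, with a median log2 fold change of 0.72. ALDH1L2, a mitochondrial folate dehydrogenase, had 72.2 and 63.1 CPM at the medium dose, against 22.1, 22.6 and 20.6 CPM in vehicle (log2 fold change 1.64 ± 0.27, adjusted p = 9.45e-05). PCK2, the mitochondrial enzyme that turns oxaloacetate into phosphoenolpyruvate, had 99.2 and 100.2 CPM at the medium dose, against 37.1, 35 and 35.9 CPM in vehicle (log2 fold change 1.47 ± 0.13, adjusted p = 3.37e-10). CBS, which joins homocysteine and serine, had 66.6 and 61.4 CPM at the medium dose, against 25.4, 24.9 and 23.9 CPM in vehicle (log2 fold change 1.37 ± 0.12, adjusted p = 8.56e-11). In all 3 genes every medium-dose value lay above all vehicle values. CBS has a near-identical copy in the table, CBSL, with at most 0.505 CPM in any of the 5 libraries. GPT2, alanine aminotransferase, had 50.4 and 52.0 CPM at the medium dose, against 23.9, 23.1 and 23.1 CPM in vehicle (log2 fold change 1.13 ± 0.11, adjusted p = 4.46e-09). ASNS, asparagine synthetase, had 289 and 278 CPM at the medium dose, against 127, 132 and 128 CPM in vehicle (log2 fold change 1.13 ± 0.18, adjusted p = 4.61e-05). PHGDH, the first enzyme of serine synthesis, had 141 and 146 CPM at the medium dose, against 72.6, 73.5 and 73.2 CPM in vehicle (log2 fold change 0.97 ± 0.19, adjusted p = 0.00128). The next steps PSAT1, MTHFD2, SHMT2, MTHFD1L, PYCR1 and PSPH rose by 0.91, 0.72, 0.49, 0.44, 0.82 and 0.36 on the log2 scale. The cytosolic folate enzymes SHMT1 and MTHFD1 were at -0.02 and -0.10, and neither they nor ALDH18A1 and CTH were called. Leaving out any 1 of the 5 libraries left 9 to 11 of the 12.

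Of 12 amino acid transporters, 2 rose. SLC6A9, a glycine transporter, had 23.2 and 22.6 CPM at the medium dose, against 9.79, 8.79 and 7.58 CPM in vehicle (log2 fold change 1.39 ± 0.24, adjusted p = 1.73e-04). SLC1A4, which carries alanine, serine and cysteine, had 85.5 and 79.1 CPM at the medium dose, against 37.4, 38.0 and 37.6 CPM in vehicle (log2 fold change 1.13 ± 0.12, adjusted p = 6.27e-09), with no overlap in either gene. The large neutral transporter SLC7A5 and the cystine exchanger SLC7A11 had log2 fold changes of -0.08 and 0.16 and were not called. Without the 4 libraries of high antisense level, 5 of the 12 were called higher.

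Synthetases that load transfer RNAs were listed by compartment. Of 20 cytosolic ones 10 rose and 0 fell, with a median log2 fold change of 0.29. Of 17 mitochondrial ones edgeR called 0 and the median was -0.01. Of these, 0 were higher and 2 lower at an unadjusted p under 0.05, and DESeq2 called 0 higher and 0 lower. Over all 18568 tested genes, 2524 passed that unadjusted p in either direction. GARS1, for glycine, had 378 and 391 CPM at the medium dose, against 234, 242 and 227 CPM in vehicle (log2 fold change 0.71 ± 0.13, adjusted p = 2.61e-04). AARS1, for alanine, had 431 and 457 CPM at the medium dose, against 300.0, 294 and 289.8 CPM in vehicle (log2 fold change 0.59 ± 0.10, adjusted p = 3.01e-04). MARS1, for methionine, had 430.5 and 432 CPM at the medium dose, against 294, 288 and 283 CPM in vehicle (log2 fold change 0.58 ± 0.12, adjusted p = 0.00140). No medium-dose value of these 3 reached into the vehicle range. SARS1, CARS1, WARS1, IARS1, YARS1, EPRS1 and LARS1 rose by 0.77, 0.65, 0.55, 0.51, 0.41, 0.41 and 0.29 on the log2 scale. HARS1, KARS1, VARS1, QARS1, FARSA and FARSB lay between -0.08 (FARSA) and 0.06 (QARS1), and RARS1 had -0.34. Without medium-dose replicate 2, 4 of the 10 stayed called, and without replicate 3, 3 did; SARS1, CARS1 and WARS1 then had adjusted p from 0.0578 (CARS1) to 0.116 (WARS1) without replicate 2 and from 0.0522 (CARS1) to 0.0693 (SARS1) without replicate 3. Without vehicle replicate 1, 2 or 3, 7, 9 or 7 were called. With no filter on low counts, 7 of the 10 were called. Without the 4 libraries of high antisense level, 11 of the 20 cytosolic synthetases were called higher and RARS1 lower. In that fit the mitochondrial AARS2 and EARS2 were called lower. The fit of only the 2 groups called 3 mitochondrial ones lower, and that of set 11 with vehicle called 4 lower.

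**Figure D3:**
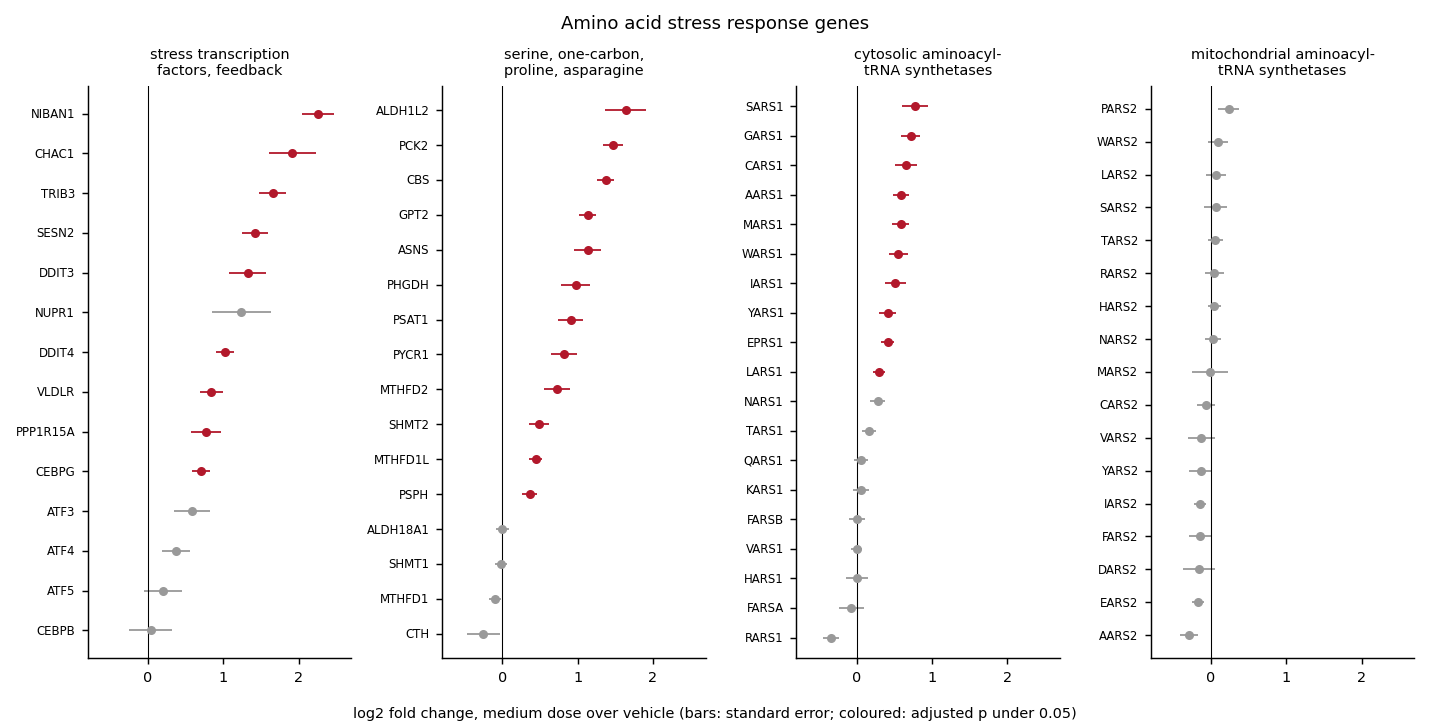
Log2 fold change of the medium dose over vehicle (horizontal axis) with its standard error for the genes of 4 lists, with 1 member of the second and 1 of the third panel not drawn; red points were called higher and grey points were not called. The first 3 panels hold 9, 12 and 10 red points, and the panel of 17 mitochondrial synthetases holds 0.

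ATF4 pairs with C/EBP proteins on a composite element, searched here as TGATGNAA on both strands in the same promoter windows, where N is any base; 3.62% of all RefSeq promoters in the table hold it. It was found in 2 of 13 promoters of the stress factors (ATF3 and CHAC1), 2 of 11 of the amino acid enzymes (MTHFD1L and ASNS), 3 of 11 of the transporters (SLC3A2, SLC7A1 and SLC38A1, none of them called), 6 of 16 of the cytosolic synthetases and 1 of 14 of the mitochondrial ones (YARS2). Of the 6 cytosolic synthetases, AARS1, CARS1, IARS1 and MARS1 rose and NARS1 and TARS1 were not called, at 0.28 and 0.16. The stretches are shown for CHAC1, ASNS and the 6 cytosolic synthetases, with the element or its reverse complement in capitals.
CHAC1, chr15:40953222-40953309, plus strand: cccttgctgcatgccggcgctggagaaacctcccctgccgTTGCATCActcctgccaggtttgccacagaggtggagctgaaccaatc
ASNS, chr7:97872429-97872516, minus strand: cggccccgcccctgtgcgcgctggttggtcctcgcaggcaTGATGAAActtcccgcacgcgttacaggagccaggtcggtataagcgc
AARS1, chr16:70289646-70289733, minus strand: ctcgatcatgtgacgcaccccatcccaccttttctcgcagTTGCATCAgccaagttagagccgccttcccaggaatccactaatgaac
CARS1, chr11:3057378-3057465, minus strand: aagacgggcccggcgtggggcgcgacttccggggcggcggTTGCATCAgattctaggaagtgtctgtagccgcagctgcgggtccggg
IARS1, chr9:92293663-92293750, minus strand: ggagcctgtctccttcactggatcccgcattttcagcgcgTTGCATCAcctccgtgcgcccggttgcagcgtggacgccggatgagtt
MARS1, chr12:57488024-57488111, plus strand: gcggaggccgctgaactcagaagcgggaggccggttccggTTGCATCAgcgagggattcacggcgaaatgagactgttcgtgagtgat
NARS1, chr18:57621787-57621862, minus strand: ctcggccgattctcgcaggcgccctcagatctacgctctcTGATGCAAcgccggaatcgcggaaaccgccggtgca
TARS1, chr5:33440927-33441014, plus strand: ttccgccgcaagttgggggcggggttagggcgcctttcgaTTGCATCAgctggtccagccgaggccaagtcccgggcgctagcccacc

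Of 20 enzymes of cholesterol synthesis, 10 fell and 0 rose, with a median log2 fold change of -0.40. IDI1, which isomerises isopentenyl diphosphate, had 40.1 and 45.2 CPM at the medium dose, against 73.6, 72.2 and 71.0 CPM in vehicle (log2 fold change -0.76 ± 0.11, adjusted p = 7.52e-06). HMGCS1, a synthase early in the pathway, had 136 and 138 CPM at the medium dose, against 202, 206 and 197 CPM in vehicle (log2 fold change -0.55 ± 0.13, adjusted p = 0.00653). The medium-dose values of both lay below every vehicle value. DHCR7, HSD17B7, FDFT1, ACAT2, LSS, SQLE and CYP51A1 fell by 0.50, 0.41, 0.40, 0.39, 0.38, 0.37 and 0.31 on the log2 scale. Of 9 genes of sterol uptake and sensing, 3 fell. INSIG1, which holds the sterol sensor in the endoplasmic reticulum, had 18.5 and 18.5 CPM at the medium dose, against 35.5, 35.3 and 38.0 CPM in vehicle (log2 fold change -0.97 ± 0.12, adjusted p = 9.58e-07). Its groups did not overlap.

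The count of enzymes rested on the libraries used: 4 of the 10 were called without medium-dose replicate 2, 3 without replicate 3, and 5, 7 or 5 without vehicle replicate 1, 2 or 3, while IDI1 and INSIG1 were called in each. HMGCS1 had an adjusted p of 0.127 and 0.0932 without medium-dose replicate 2 and 3, DHCR7 had 0.161 and 0.218 in the same fits, and HSD17B7 lost its call in each of the 5 (0.105 to 0.334). With no filter on low counts 3 of the 10 were called, and FDFT1 had an adjusted p of 0.241. Without the 4 libraries of high antisense level, 16 of the 20 enzymes and 6 of the 9 uptake genes were called lower. Of 12 tested genes of fatty acid synthesis, FADS2, a desaturase, fell (log2 fold change -0.49 ± 0.07, adjusted p = 2.63e-05), while FASN, SCD and SREBF1 had -0.28, -0.44 and -0.03 and were not called. Among 6 targets of the oxysterol receptor LXR, ABCG1, a cholesterol exporter at a low level, had 1.37 and 1.36 CPM at the medium dose, against 0.392, 0.488 and 0.461 CPM in vehicle and rose (log2 fold change 1.60 ± 0.31, adjusted p = 9.83e-04). ABCA1 had 0.68 and was not called. The sterol regulatory letters TCACCCCAC were in 0 of 15 promoters of the enzymes and 1 of 7 of the uptake genes (SREBF2), and in 0.43% of all RefSeq promoters.

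Of 18 heat shock proteins 9 fell and 1 rose, with a median log2 fold change of -0.33. The inducible Hsp70 genes HSPA1A and HSPA1B, neighbours on chromosome 6 that are near-identical, had 227 and 240.1 CPM at the medium dose, against 335, 337 and 361 CPM in vehicle (HSPA1A) and 144 and 154 CPM at the medium dose, against 200.3, 203 and 216 CPM in vehicle (HSPA1B). Both were lower in each medium-dose library (HSPA1A log2 fold change -0.56 ± 0.13, adjusted p = 0.00522; HSPA1B log2 fold change -0.47 ± 0.08, adjusted p = 1.52e-04). Reads may have been divided between them. DNAJA1, a cochaperone of Hsp70, had 320.4 and 327 CPM at the medium dose, against 419.6, 435 and 435 CPM in vehicle (log2 fold change -0.41 ± 0.08, adjusted p = 0.00109). HSP90AB1, HSPH1, HSPA4, AHSA1, CHORDC1 and the mitochondrial HSPD1 fell by 0.38, 0.35, 0.32, 0.32, 0.36 and 0.33 on the log2 scale, and the 1 that rose was HSPA9. HSPB1 had overlapping groups and -0.12. With no filter on low counts 1 of the 9 was called, along with HSP90AA1 and HSPE1, and HSPA1B had an adjusted p of 0.0793. Counts of the 9 were 2 without medium-dose replicate 2, 4 without replicate 3, and 6, 6 or 5 without vehicle replicate 1, 2 or 3. HSP90AB1 had an adjusted p of 0.196 and 0.14 without medium-dose replicates 2 and 3, and DNAJA1 and HSPH1 had 0.0569 and 0.0746 without replicate 2. HSPA1A had an adjusted p of 0.154 and 0.0596 without medium-dose replicates 2 and 3, and CHORDC1 lost its call in each of the 5 (0.0910 to 0.396).

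A heat shock element, searched as GAANNTTC (its own reverse complement), was in 6 of 18 promoters of this list and in 6.77% of all RefSeq promoters; HSPA1A, HSPA1B, DNAJA1 and CHORDC1 with the element fell, and HSPA8 and HSPB1 with it were not called. The Hsp70 pair and DNAJA1 are shown because they fell most among those with the element, which is in capitals.
HSPA1A, chr6:31815397-31815484, plus strand: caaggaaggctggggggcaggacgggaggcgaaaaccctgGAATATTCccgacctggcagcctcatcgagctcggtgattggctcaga
HSPA1B, chr6:31827593-31827680, plus strand: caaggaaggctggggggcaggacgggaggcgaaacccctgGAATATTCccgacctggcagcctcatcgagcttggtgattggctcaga
DNAJA1, chr9:33025035-33025122, plus strand: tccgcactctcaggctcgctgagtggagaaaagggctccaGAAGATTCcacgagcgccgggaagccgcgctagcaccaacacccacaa

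In the endoplasmic reticulum, 3 of 18 chaperone and unfolded protein response genes fell and 2 rose. CALR, the calcium-binding lectin chaperone, had 312 and 306 CPM at the medium dose, against 472, 452 and 461 CPM in vehicle, lower in both libraries (log2 fold change -0.58 ± 0.10, adjusted p = 3.25e-04). The disulfide isomerases PDIA4 and PDIA6 fell by 0.39 and 0.38. ERN1, the sensor IRE1, had 27.9 and 28.7 CPM at the medium dose, against 16.8, 16.3 and 16.2 CPM in vehicle (log2 fold change 0.79 ± 0.17, adjusted p = 0.00388). Its substrate XBP1 rose by 0.46 ± 0.12. HSPA5, the chaperone BiP, had 657 and 654 CPM at the medium dose, against 614, 634 and 655 CPM in vehicle, with overlapping groups and no call (log2 fold change 0.05 ± 0.07, adjusted p = 0.880). Without medium-dose replicate 3, ERN1, XBP1 and PDIA6 had adjusted p of 0.0720, 0.0740 and 0.0851, and XBP1 had 0.218 without replicate 2 and 0.0737 without vehicle replicate 1. With no filter on low counts 1 of the 3 that fell and 1 of the 2 that rose were called, along with SDF2L1, and PDIA4 had an adjusted p of 0.244. Without the 4 libraries of high antisense level, 4 of the 18 rose and 8 fell.

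Of 27 genes of G2/M and mitosis, 6 fell and 0 rose, all 27 had a log2 fold change below 0, and the median was -0.32. AURKA, the spindle pole kinase, had 126 and 115 CPM at the medium dose, against 171, 172 and 165 CPM in vehicle (log2 fold change -0.49 ± 0.10, adjusted p = 0.00109). CCNB1, cyclin B1, had 173 and 167 CPM at the medium dose, against 234, 236 and 242 CPM in vehicle (log2 fold change -0.48 ± 0.09, adjusted p = 8.79e-04). Its kinase CDK1 had 109 and 109.8 CPM at the medium dose, against 145, 156 and 153 CPM in vehicle (log2 fold change -0.47 ± 0.11, adjusted p = 0.0108), all 3 below every vehicle value. UBE2C, KIF11 and TPX2 fell by 0.45, 0.38 and 0.29, and MKI67 and TOP2A, at -0.32 and -0.31, were not called. Of 32 genes of DNA replication, 9 fell and 0 rose, all 32 were below 0, and the median was -0.26. GINS1, of the replicative helicase, had 57.2 and 57.1 CPM at the medium dose, against 85.1, 87.4 and 87.7 CPM in vehicle (log2 fold change -0.60 ± 0.07, adjusted p = 5.21e-08). MCM4, CDC6, PCNA, FEN1, GINS4, MCM10 and RRM1 fell by 0.38, 0.46, 0.35, 0.56, 0.40, 0.33 and 0.30. Among 10 tested cyclins and inhibitors of G1, CCND3, cyclin D3, fell: it had 127 and 131 CPM at the medium dose, against 243, 238 and 256 CPM in vehicle (log2 fold change -0.93 ± 0.09, adjusted p = 4.77e-09), while CCND1 and the inhibitor CDKN1A were at -0.08 and 0.28 and were not called. Without the 4 libraries of high antisense level, 2 of these 10 were called higher, CDKN1A among them, and 3 lower.

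These counts depended on the libraries in the fit. The mitotic genes called were 2 without medium-dose replicate 2, 1 without replicate 3, and 3, 2 or 2 without vehicle replicate 1, 2 or 3; the replication genes were 4, 4, 6, 6 and 5. CDK1 had an adjusted p of 0.170 and 0.130 without medium-dose replicates 2 and 3 and 0.0621 and 0.0506 without vehicle replicates 2 and 3. AURKA had 0.0794 without medium-dose replicate 3, GINS4 had 0.0874 and 0.0774 without medium-dose replicates 2 and 3, KIF11, UBE2C, TPX2 and FEN1 were lost in each of the 5, and GINS1 and CCND3 were called in each. With no filter on low counts 0 of the 6 mitotic and 2 of the 9 replication genes were called, though BIRC5 was, and CCNB1, CDC6 and MCM4 had adjusted p of 0.0637, 0.0893 and 0.274. Without the 4 libraries of high antisense level, 19 of 27 and 21 of 32 were called lower. The letters TTTGAA of the cell cycle homology region were in 12 of 21 promoters of the mitotic list, on either strand, and in 15.2% of all RefSeq promoters. Of the 12, CCNB2, PLK1, BUB1B, CDC20, CENPA, CENPF, KIF23, TOP2A, NUSAP1 and MKI67 were not called. AURKA, CCNB1, UBE2C and TPX2 fell and are not among the 12, and 21 of the 27 members had a promoter to search. CDK1 and KIF11, which hold the letters and fell, are shown with the letters or their reverse complement in capitals.
CDK1, chr10:60778130-60778215, plus strand: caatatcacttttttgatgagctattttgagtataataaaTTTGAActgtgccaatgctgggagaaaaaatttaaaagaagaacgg
KIF11, chr10:92593062-92593147, plus strand: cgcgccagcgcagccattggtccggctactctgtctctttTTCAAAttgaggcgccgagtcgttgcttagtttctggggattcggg

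**Figure D4:**
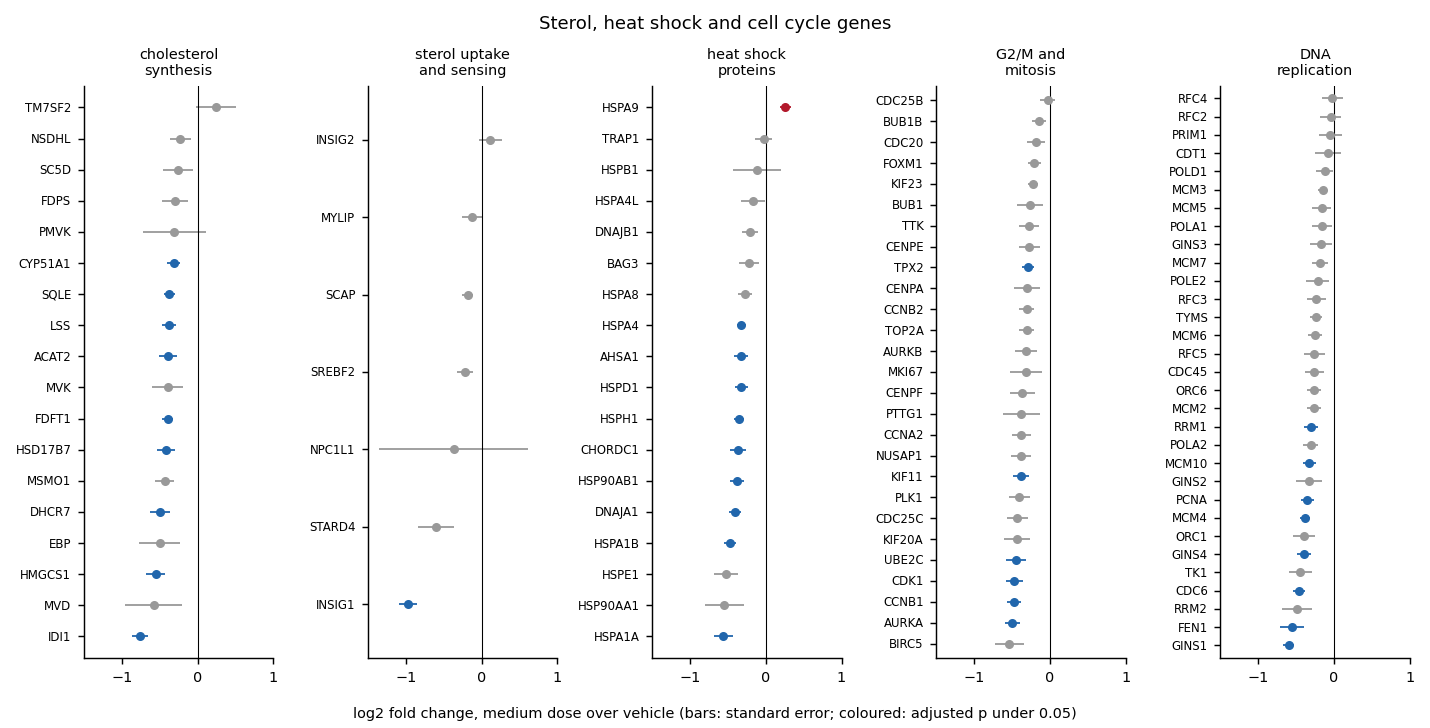
Log2 fold change of the medium dose over vehicle (horizontal axis) with its standard error for the genes of 5 lists, with 2 members of each of the first 2 panels and 1 of the last not drawn; blue and red points were called lower and higher and grey points were not called. Blue points number 9, 1, 9, 6 and 8 from left to right, and HSPA9 is the only red one.

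Among the genes named for the size of their change, several are on none of the lists given above, which does not place them outside those responses. GREM1, a secreted antagonist of BMP ligands, had 23.7 and 23.7 CPM at the medium dose, against 5.13, 4.60 and 4.46 CPM in vehicle (log2 fold change 2.32 ± 0.31, adjusted p = 2.32e-06). STC2, a secreted glycoprotein hormone, had 125 and 117 CPM at the medium dose, against 30.8, 26.8 and 27.1 CPM in vehicle (log2 fold change 2.10 ± 0.27, adjusted p = 1.21e-06). RAB39B, a small GTPase of vesicle traffic, had 5.53 and 7.12 CPM at the medium dose, against 1.92, 1.43 and 1.84 CPM in vehicle (log2 fold change 1.88 ± 0.31, adjusted p = 1.09e-04). ULBP1, a ligand of the natural killer cell receptor NKG2D, had 9.43 and 8.54 CPM at the medium dose, against 2.43, 2.62 and 2.87 CPM in vehicle (log2 fold change 1.77 ± 0.33, adjusted p = 6.74e-04). All 4 were above every vehicle value in both medium-dose libraries, which the rule that named them required. Of 16 genes of TGF-beta and BMP signalling, INHBE, an activin subunit, also rose (log2 fold change 1.49 ± 0.25, adjusted p = 1.85e-04). FST, an antagonist of activins, had 4.33 and 4.45 CPM at the medium dose, against 9.24, 8.72 and 7.89 CPM in vehicle and fell (log2 fold change -0.97 ± 0.16, adjusted p = 1.09e-04).

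NR4A1 and NR4A3, orphan nuclear receptors of the immediate early class, had the largest falls among the genes so named. The naming rule admitted only genes with no overlap between the groups. NR4A1 had 11.0 and 11.8 CPM at the medium dose, against 38.2, 35.6 and 39.5 CPM in vehicle (log2 fold change -1.73 ± 0.24, adjusted p = 3.78e-06). NR4A3 had 2.52 and 2.98 CPM at the medium dose, against 8.77, 9.52 and 7.78 CPM in vehicle (log2 fold change -1.66 ± 0.28, adjusted p = 1.29e-04), with no overlap in either gene. JUN, of the AP-1 factor, moved the other way with 46.3 and 46.5 CPM at the medium dose, against 32.3, 34.2 and 31.6 CPM in vehicle (log2 fold change 0.51 ± 0.11, adjusted p = 0.00505). The other 14 of 17 immediate early genes were not called. JUN had an adjusted p of 0.0576 and 0.0752 without medium-dose replicates 2 and 3. SOX9, a lineage transcription factor, had 8.11 and 7.83 CPM at the medium dose, against 18.5, 20.1 and 18.1 CPM in vehicle (log2 fold change -1.25 ± 0.15, adjusted p = 4.53e-07). NPTX1, a secreted pentraxin, had 159 and 154 CPM at the medium dose, against 382, 363 and 348 CPM in vehicle (log2 fold change -1.22 ± 0.11, adjusted p = 2.45e-10). INSL4, an insulin-like peptide best known from placenta, had 8.38 and 8.29 CPM at the medium dose, against 17.0, 15.97 and 20.3 CPM in vehicle (log2 fold change -1.09 ± 0.17, adjusted p = 3.72e-05). TM4SF1, a membrane protein of the transmembrane 4 L6 family, had 245 and 230.3 CPM at the medium dose, against 468, 472 and 499 CPM in vehicle (log2 fold change -1.01 ± 0.17, adjusted p = 1.29e-04). The imprinted noncoding RNA H19 had 38.0 and 42.2 CPM at the medium dose, against 83.5, 78.1 and 92.6 CPM in vehicle (log2 fold change -1.08 ± 0.25, adjusted p = 0.00568). Its adjusted p was 0.160 and 0.0700 without medium-dose replicates 2 and 3. NCALD and UPK3B fell by 1.06 and 1.04; NCALD had an adjusted p of 0.112 without replicate 2, and UPK3B lost its call with each of the 5 libraries left out (0.0512 to 0.313).

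The 3 chains of fibrinogen, the clot protein, fell. FGA had 89.5 and 96.2 CPM at the medium dose, against 149, 144 and 153 CPM in vehicle (log2 fold change -0.68 ± 0.12, adjusted p = 1.85e-04). FGB had 83.4 and 88.0 CPM at the medium dose, against 157, 157 and 165 CPM in vehicle (log2 fold change -0.90 ± 0.19, adjusted p = 0.00298). FGG had 56.2 and 54.9 CPM at the medium dose, against 84.6, 76.2 and 96.2 CPM in vehicle (log2 fold change -0.63 ± 0.16, adjusted p = 0.0147), and none of the 3 overlapped between the groups. FGB and FGG had adjusted p of 0.0994 and 0.168 without medium-dose replicate 2 and of 0.0533 and 0.189 without replicate 3; FGG had 0.113 without vehicle replicate 3. Of 21 genes of glycolysis and glucose uptake, HK2, hexokinase 2, had 3.62 and 4.34 CPM at the medium dose, against 1.33, 1.74 and 2.00 CPM in vehicle and rose (log2 fold change 1.24 ± 0.21, adjusted p = 1.14e-04). SLC2A3, the glucose transporter GLUT3, had 17.2 and 16.8 CPM at the medium dose, against 32.9, 33.2 and 32.3 CPM in vehicle and fell (log2 fold change -0.95 ± 0.10, adjusted p = 3.80e-08). Of 6 tested glucocorticoid receptor targets, TSC22D3, the leucine zipper GILZ, had 27.3 and 22.5 CPM at the medium dose, against 9.004, 9.10 and 9.94 CPM in vehicle and rose (log2 fold change 1.41 ± 0.18, adjusted p = 1.36e-06). SGK1, a kinase of ion transport, had 26.7 and 25.4 CPM at the medium dose, against 47.9, 50.5 and 50.8 CPM in vehicle and fell (log2 fold change -0.93 ± 0.14, adjusted p = 3.23e-05).

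The medium dose was then set against its neighbours. Against the low dose, 5 genes were called, 0.0269% of those tested, and against the high dose 9, 0.0485%; at an unadjusted p under 0.05 there were 547 and 900. CYP1B1 was called higher at the medium than at the low dose, with 101 and 107, then 169 and 182, then 234 and 243 CPM over the low, medium and high doses (medium over low 0.76 ± 0.12, adjusted p = 0.00224). NPTX1 was called in both steps, with 232 and 232, then 159 and 154, then 90.8 and 93.3 CPM over the 3 doses (medium over low -0.57, adjusted p = 0.0476; medium over high 0.77, adjusted p = 5.31e-04). SLC2A3 was lower than at the low dose (-0.63 ± 0.11, adjusted p = 0.00983). Against the high dose, SLFN5, of the Schlafen family, and UNC5B, a netrin receptor, were lower (-1.09 and -1.07) and FADS2 and TM4SF4 higher (0.43 and 0.69). ENSG00000223414, a gene with no symbol in the tables used, was called in both steps, at -0.53 ± 0.08 (adjusted p = 5.61e-04) against the low and 0.70 ± 0.08 (adjusted p = 1.65e-06) against the high dose. The medium-dose libraries enter every one of these comparisons, which are therefore not independent. Leaving out 1 library of either dose left 0 to 2 calls against the low dose and 1 to 5 against the high dose, and without the 4 libraries of high antisense level there were 41 and 244. The high-dose libraries, whose antisense level lay just under that of the 4, stayed in these fits.

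Some mitochondrial RNAs did not move in one direction from vehicle through the 3 doses. MT-ND5 averaged 2633, 15517, 5300.0 and 1463 CPM in vehicle and over the low, medium and high doses. The medium dose was lower than the low (-1.55 ± 0.29, adjusted p = 0.0212) and higher than the high dose (1.86 ± 0.29, adjusted p = 0.00119). MT-CYB had 3801, 14355, 10290.3 and 2360.2 CPM in the same order, with a called difference from the high dose (2.12 ± 0.38, adjusted p = 0.00682) and none from the low (-0.48, adjusted p = 1). MT-RNR1 stood at 27275, 32609 and 21044 CPM over the 3 doses, and the medium dose was not called apart from either (0.26 and 0.63). The count ratio of 12S to 16S was 0.384 and 0.386 at the low, 0.398 and 0.440 at the medium and 0.535 and 0.564 at the high dose.

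**Figure D5:**
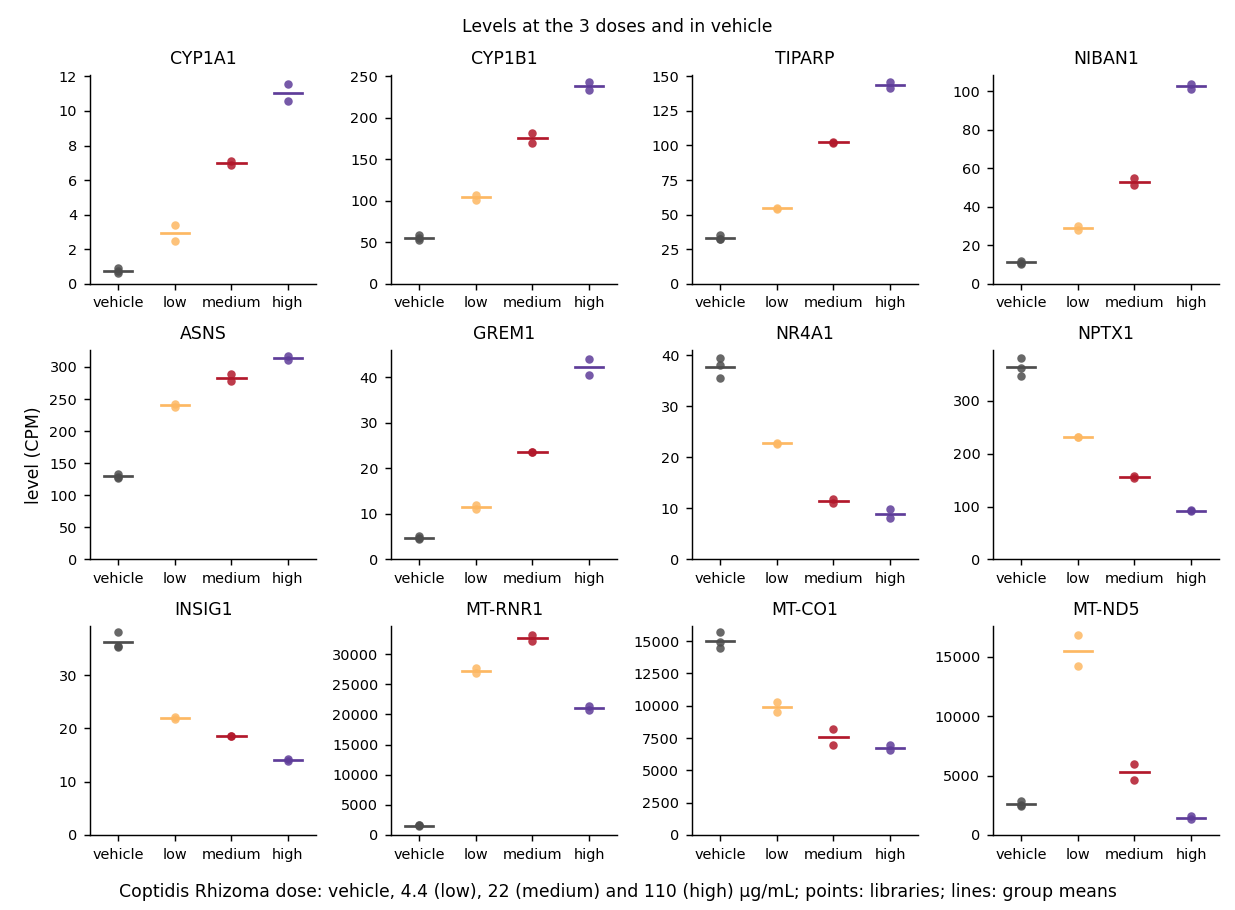
Level in CPM (vertical axes, each from 0) of 12 genes in vehicle and at the low, medium and high dose of the extract; points are libraries (3 of vehicle, 2 of each dose) and lines are group means. At the medium dose CYP1A1, CYP1B1, TIPARP, NIBAN1, ASNS and GREM1 lie between the low and high doses above vehicle, NR4A1, NPTX1, INSIG1 and MT-CO1 lie between them below vehicle, MT-RNR1 is highest at the medium dose, and MT-ND5 is highest at the low dose and below vehicle at the high dose.

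The medium-dose mean lay between the low-dose and high-dose means in 5 of 5 AhR targets and 12 of 14 stress factors, and in 52.3% of all tested genes. It also did in 20 of 20 cholesterol enzymes, 18 of 18 heat shock proteins, 27 of 27 mitotic and 32 of 32 replication genes. For the mitochondrial genome it did in 0 of 2 ribosomal RNAs and 6 of 12 heavy-strand messengers. CYP1A1 averaged 2.93, 6.99 and 11.1 CPM at the low, medium and high dose, NIBAN1 29.02, 53.2 and 103 CPM, and GREM1 11.5, 23.7 and 42.3 CPM; neither step passed the test in any of these 3 genes. ASNS averaged 240.2, 283 and 314 CPM. In vehicle these 4 averaged 0.749, 11.1, 4.73 and 129 CPM. INSIG1 averaged 21.9, 18.5 and 14.0 CPM over the doses and 36.3 CPM in vehicle, and the medium dose was not called apart from either neighbour (-0.24, adjusted p = 1, and 0.40, adjusted p = 0.530).

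Against Zizyphi Fructus at its medium dose, whose libraries carry the same set code and which was given at 100 µg/mL and not 22, edgeR called 337 genes: 183 were higher with Coptidis Rhizoma (0.986% of those tested) and 154 lower (0.829%). MT-RNR1 had 33123 and 32094 CPM with Coptidis Rhizoma, against 1519 and 2150.1 CPM with Zizyphi Fructus (log2 fold change 4.15 ± 0.27, adjusted p = 5.11e-14). CYP1A1 had 6.85 and 7.12 CPM, against 0.793 and 0.596 CPM (3.34 ± 0.34, adjusted p = 7.92e-09), and NIBAN1 had 54.8 and 51.5 CPM, against 9.84 and 10.9 CPM (2.35 ± 0.24, adjusted p = 1.38e-08). By list, 4 of 5 AhR targets, 8 of 14 stress factors, 11 of 17 amino acid enzymes and 6 of 20 cytosolic synthetases were higher, and 6 of 20 cholesterol enzymes, 6 of 18 heat shock proteins, 5 of 27 mitotic and 5 of 32 replication genes were lower. NR4A1 had 11.0 and 11.8 CPM, against 37.8 and 38.9 CPM (-1.75 ± 0.25, adjusted p = 1.43e-05). MT-ND5 and MT-CYB, called against vehicle, were not called here (0.94, adjusted p = 0.0833, and 1.20, adjusted p = 0.0836). Both comparisons use the same 2 medium-dose libraries. Leaving out 1 library left 114 to 164 calls, and without the 4 libraries of high antisense level there were 1396.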

How the data were processed

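The deposited table holds expected counts per gene, with no normalization of them recorded in the labels. Per the submitters' processing notes, RSEM 1.3.3, STAR 2.7.3a, Trim Galore 0.6.5 and FastQC 0.11.9 were used on hg38 (GRCh38); the annotation release and the use of strand in counting are not given in the sources used here, so overlapping and antisense genes are uncertain. Columns of other series in that table, 210 in number, were not used, nor was replicate 1 of Coptidis Rhizoma. Expected counts were rounded to whole numbers (84.4% were whole as deposited) and fitted with edgeR 4.0.16 in R 4.3.3: TMM scaling, filterByExpr (minimum 10 counts, total 15), group means of all 59 libraries in 25 groups, quasi-likelihood F test, Benjamini-Hochberg adjustment over the 18568 genes tested, threshold 0.05. Errors (±) are standard errors, the log2 fold change over the root of F. Totals ran from 17214755 to 39751161 expected counts, and their number limits the precision of low genes. Gene classes and coordinates are from GENCODE 29, promoters from RefSeq (GRCh38.p14). Symbols are from a separate list of gene names, and from GENCODE 29 where that list gave none. Members and lists were chosen with earlier results of these data known. Genes were named by rule: the 12 largest called rises and falls with no overlap between groups and at least 5 CPM in the higher group, up to 6 called members of each list (defining members where under 2 were called), all tested mitochondrial genes, and the 5 largest rises and falls of the other comparisons; other members are named to complete a count, after their values were seen. Alternatives were DESeq2 1.42.0, its size factors, other filters, smaller sets of libraries, a replicate block and leaving out each library. Some items are not reported here; counts of lists include them. Scripts were tested on simulated data.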

Additional observations from a re-analysis of the deposited data

How the results depend on the processing

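Against vehicle (607 calls), a fit of only these 2 groups gave 3737, set 11 with vehicle 3912, and the fit without the 4 libraries of high antisense level, chosen after seeing the data, 2272; leaving out 1 library gave 228 to 413. Against the low dose (5), DESeq2 gave 16, no filter 30, only 2 groups 544, set 11 with vehicle 209, without the 4 libraries 41, the mitochondrial genes left out 3, and leave-one-out fits 0 to 2 (with 391 to 477 genes at an unadjusted p under 0.05). Against the high dose (9), DESeq2 gave 56, no filter 37, only 2 groups 1571, set 11 with vehicle 846, without the 4 libraries 244, and leave-one-out fits 1 to 5. Against Zizyphi Fructus (337), only 2 groups gave 1548, set 11 with vehicle 2840, without the 4 libraries 1396, and leave-one-out fits 114 to 164. The cause was not tested. DESeq2 size factors, DESeq2, a stricter filter and no filter gave 595, 752, 673 and 416 against vehicle, within 1.5 times of 607; of the 607, 579, 581, 577 and 267 were called in them in the same direction. With the replicate number as a replicate block the counts were 637, 6, 12 and 389 in the same order of comparisons. Deviations of same-numbered medium-dose libraries correlated at 0.00987 and -0.0722 with vehicle replicates 2 and 3, -0.115 with the low dose, -0.0525 with the high dose and -0.121 with Zizyphi Fructus, and none was above 0.1. In groups of 2 libraries, replicates 2 and 3 give the same value. These correlations therefore cannot decide whether same-numbered libraries belong together. A crossed replicate block, chosen after seeing the data, gave 5 calls against the low dose and 397 against Zizyphi Fructus. Of 116 named genes that were called, 60 stayed called under every alternative, 56 lost the call under at least 1 and 0 changed direction. Depth limits low genes: CYP1A1 and RAB39B rest on a few CPM.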

Other observations

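Further gene groups were tested in the same comparison, medium dose against vehicle, with edgeR's quasi-likelihood test and Benjamini-Hochberg adjustment. BBC3, the proapoptotic PUMA, had 10.0 and 11.4 CPM at the medium dose, against 5.56, 5.61 and 5.33 CPM in vehicle and rose (log2 fold change 0.96 ± 0.18, adjusted p = 4.95e-04). Of 20 p53 targets, 2 rose, BBC3 among them. Without the 4 libraries of high antisense level, 8 of the 20 were called higher. Of 20 NRF2 targets, ALDH3A1 and ABCC3 rose (0.68 and 0.45), and both lost the call without medium-dose replicate 3 (adjusted p 0.160 and 0.218); ABCC3 also lost it without medium-dose replicate 2 (0.0701). Of 18 inflammatory genes, CXCL2, a neutrophil chemokine, had 5.10 and 6.01 CPM at the medium dose, against 2.62, 2.44 and 2.25 CPM in vehicle (log2 fold change 1.18 ± 0.23, adjusted p = 0.00105), with an adjusted p of 0.0596 without medium-dose replicate 3; without the 4 libraries of high antisense level 7 were called higher.

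Of 12 interferon-stimulated genes, OAS1 fell (log2 fold change -0.67 ± 0.13, adjusted p = 8.29e-04) and MX1 rose (log2 fold change 1.49 ± 0.41, adjusted p = 0.0342), with MX1 losing its call without either medium-dose replicate (adjusted p 0.418 and 0.0774) and without vehicle replicate 2 or 3 (0.161 and 0.0917). Of 30 cytosolic ribosomal proteins edgeR called 0 and DESeq2 called 0, with a median log2 fold change of 0.06. At an unadjusted p under 0.05 there were 0, against 2524 of all 18568 tested genes. The same counts of 0 held for 22 genes of ribosome biogenesis, 14 clock genes and 5 metallothionein and zinc genes, with medians of -0.01, 0.04 and -0.27. Among noncoding RNAs, the snoRNA host GAS5 had 207 and 193 CPM at the medium dose, against 119, 123 and 136 CPM in vehicle (log2 fold change 0.66 ± 0.11, adjusted p = 6.44e-05), and the imprinted MEG3 had 75.8 and 71.3 CPM at the medium dose, against 45.5, 46.1 and 39.9 CPM in vehicle (log2 fold change 0.75 ± 0.15, adjusted p = 0.00136), both above every vehicle value.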
